A study of Homo sapiens with 10 samples.

Results

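The comparison described here set MOLT-4 cells after 3 h with the antibody MABL against the same cells at 0 h. Each change rests on 4 of the 10 arrays of the series, the 2 labelled 3 h and the 2 labelled 0 h, chosen by their labels alone. The choice of probe sets to test and the spread behind each p-value came from all 10 arrays. MOLT-4 was established from a human T-cell leukaemia, and MABL is described in the labels as directed at CD47. All samples are labelled with MABL at 10 ug/mL and with GAM, an abbreviation that is not explained, at 50 ug/mL, including those of 0 h. No array of cells kept for 3 h without the antibody was analysed here, so antibody, GAM, handling and time in culture cannot be told apart. Total RNA was read on Affymetrix human arrays, on which each transcript is measured by 1 or more probe sets of short oligonucleotides. No label states that the 2 replicates of a time were grown separately; the p-values therefore reflect the spread of these arrays alone, possibly a technical one.

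CD47 sits on the surface of nearly all cells, where SIRP alpha and thrombospondin bind it, and its ligation is known to trigger death of some leukaemic T cells. Cells under stress change their RNA along a few known routes. A shortage of oxygen or nutrients raises DDIT4, which restrains the growth kinase complex mTORC1. A load of unfolded protein in the endoplasmic reticulum (ER) raises chaperones such as HSPA5 through elements in their promoters, and heat or misfolded protein in the cytosol raises the heat shock proteins.

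The promoters of 5 genes are shown first because they hold letters of the elements by which ER chaperone and hypoxia genes are known to be regulated. They are RefSeq sequences of GRCh38.p14, covering the 250 bases before the annotated start, printed 5′ to 3′ on the gene's own strand. A 19-base ER stress element was searched as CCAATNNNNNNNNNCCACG on both strands; it contains the shorter CCAAT box. It stood in 22 of 27305 promoters (0.0806%) and in 4 of the 2392 tested genes that had a promoter in the table (CALR, CANX, HSPA5 and SERP1). The first 3 of these are below, with only the fixed letters of the element in capitals. HSPA5 lies at chr9:125241344-125241593 on the minus strand, CANX at chr5:179698679-179698928 on the plus strand and CALR at chr19:12938359-12938608 on the plus strand, where the element runs on the opposite strand.
HSPA5: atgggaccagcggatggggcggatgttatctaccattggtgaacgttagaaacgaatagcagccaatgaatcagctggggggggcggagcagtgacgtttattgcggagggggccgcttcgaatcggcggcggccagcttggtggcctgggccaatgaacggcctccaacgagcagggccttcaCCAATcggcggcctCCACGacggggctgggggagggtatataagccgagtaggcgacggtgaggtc
CANX: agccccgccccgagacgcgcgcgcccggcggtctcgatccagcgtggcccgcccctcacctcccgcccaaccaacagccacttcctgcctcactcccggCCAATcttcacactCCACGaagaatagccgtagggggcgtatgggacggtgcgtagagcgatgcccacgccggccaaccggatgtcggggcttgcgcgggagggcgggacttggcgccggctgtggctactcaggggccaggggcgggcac
CALR: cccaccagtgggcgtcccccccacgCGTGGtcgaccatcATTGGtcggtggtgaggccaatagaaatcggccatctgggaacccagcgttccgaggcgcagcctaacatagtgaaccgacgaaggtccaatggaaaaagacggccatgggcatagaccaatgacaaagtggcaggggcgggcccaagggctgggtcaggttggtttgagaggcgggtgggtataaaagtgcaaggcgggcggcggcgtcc
Counted from the start, the element spans positions -66 to -48 in HSPA5, -151 to -133 in CANX and -225 to -207 in CALR. HSPA5 was the gene with the lowest change at 3 h, whereas CANX was called at 1 of 3 probe sets (-1.70, with -0.81 at the brightest), SERP1 at 2 of 3 and CALR at none of 3 (0.21 at the brightest). The element was thus shared by genes with unlike values.

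HERPUD1, an ER protein that takes part in the removal of misfolded proteins, fell at 3 h. The 19-base form was not found in its window, but a shorter form, ER stress element II, was. It was searched as ATTGGNCCACG on both strands, and its first 5 letters are a CCAAT box read on the opposite strand. Its fixed letters are in capitals below (chr16:56931892-56932141, plus strand). This form stood in 14 of all promoters (0.0513%) and in 4 of those of tested genes (HERPUD1, HYOU1, SDF2L1 and SETD3). Of these, the ER chaperone HYOU1 (-0.21) and the ER chaperone partner SDF2L1 (-0.14) were not called. A CCAAT box alone was present in 33% of all promoters, in 39.8% of those of tested genes and in 10 of 12 ER chaperone promoters. DDIT4 is shown with the ACGTG core of the hypoxia response element in capitals (chr10:72273674-72273923, plus strand). That core, searched on both strands, stood in 18.7% of all promoters and in 25.5% of those of tested genes. It also stood, left in lower case, in the HERPUD1 window, and in 10 of 21 HIF-1 and glycolysis promoters, among them LDHA and BNIP3. The core was thus shared by genes with unlike values, since HERPUD1 and LDHA were called lower and BNIP3 was not called.
HERPUD1: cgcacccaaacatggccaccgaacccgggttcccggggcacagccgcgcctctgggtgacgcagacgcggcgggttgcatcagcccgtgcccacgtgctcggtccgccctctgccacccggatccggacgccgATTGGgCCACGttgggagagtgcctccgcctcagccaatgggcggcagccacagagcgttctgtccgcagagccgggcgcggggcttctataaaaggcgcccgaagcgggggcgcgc
DDIT4: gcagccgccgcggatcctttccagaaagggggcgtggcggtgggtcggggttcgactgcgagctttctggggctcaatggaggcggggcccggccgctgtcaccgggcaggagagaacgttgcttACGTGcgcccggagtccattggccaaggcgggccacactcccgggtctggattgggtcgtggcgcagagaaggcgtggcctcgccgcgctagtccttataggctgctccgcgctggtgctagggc
The element spans positions -117 to -107 in HERPUD1, and in DDIT4 the core spans positions -125 to -121. These matches describe letters in a window and not bound sites.

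The arrays showed T-lineage RNA and technical signals that moved with time. Of 23 T-lineage markers on the array, 15 exceeded log2 5 on at least 1 array, among them CD3D, CD3E, LCK, CD1A, PTCRA, RAG1 and DNTT. CD2, CD4, CD7, CD8A, CD8B, CD27, CD28 and RAG2 stayed below it on every array, and RAG1 exceeded it on too few arrays to be tested. None of the B cell (7), myeloid (8), erythroid and platelet (7) or NK cell (7) markers exceeded log2 5. Of 10 fibroblast and epithelial markers only COL1A1 did. The summed T-lineage level was 151.7 to 151.8 on the 0 h arrays and 147.7 to 149.3 on the 3 h arrays. The summed levels of the other lists were each higher at 3 h (for B cell markers 18.57 to 18.59 at 0 h and 19.02 to 19.2 at 3 h), while the median of all probe sets rose from 2.871 to 2.916. The 18S ribosomal RNA probe sets averaged 9.03 at 0 h and 11.2 at 3 h, and the spike-in controls 10 and 10.76, without overlap of the groups in either. The 3-prime minus 5-prime difference of a control transcript is smaller for intact RNA. For ACTB it averaged 1.596 at 0 h and 1.735 at 3 h with overlapping arrays, and for GAPDH 0.358 and 0.233, in the other direction and without overlap. Every comparison of 3 h with 0 h below was made across this rise of the 18S and spike-in signals. With the spike-in level or the 18S level as a covariate limma called 0 probe sets (564 and 489 had an unadjusted p under 0.05), at a median SE of 0.293 and 0.272 against 0.148, so time and these controls cannot be told apart.

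RNA levels at 3 h were mostly lower than at 0 h among the called probe sets. Each deposited value was reduced to its square root and taken as a log2 level, and a change is the log2 level at 3 h minus that at 0 h (n = 2 arrays each). Of 22283 probe sets, 68 controls were set aside and 4276 of the other 22215 (19.2%) reached log2 5 on at least 2 of the 10 arrays and were tested. Calls required an adjusted p under 0.05 in limma's moderated test, fitted on all 10 arrays. At 3 h, 1236 (28.9%) were called, 1128 lower (26.4%) and 108 higher (2.53%). The median called change was -0.88 among those lower and 0.52 among those higher. Of the lower ones 431 fell by at least 1 and 25 by at least 2, while 13 rose by at least 1 and only DDIT4 by at least 2. The submitters' rule, both 3 h arrays beyond 2 or 0.5 times the 0 h geometric mean, was met by 286 lower (6.69%) and 13 higher (0.304%) probe sets, of which 282 (6.59% of those tested) and 12 (0.281%) were also called.

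The split between lower and higher depended on how the arrays were centred. The median of the tested probe sets was 0.311 lower at 3 h, while that of all probe sets was 0.045 higher. Once the medians of the tested probe sets were made equal, 40.9% were called, 760 lower (17.8%) and 987 higher (23.1%). Values on that scale are called re-centred below. Equal medians of all probe sets gave calls for 29.4%, 1186 lower (27.7%) and 71 higher (1.66%), and renewed quantile normalization 798 lower and 822 higher. With 0 h replicate 1 left out the counts were 403 lower and 26 higher, without 3 h replicate 2 they were 493 and 75, and without 3 h replicate 1 they were 1077 and 60. With a 3 h array left out, the submitters' rule becomes a condition on 1 array, so its counts then do not compare with those above.

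**Figure D1:**
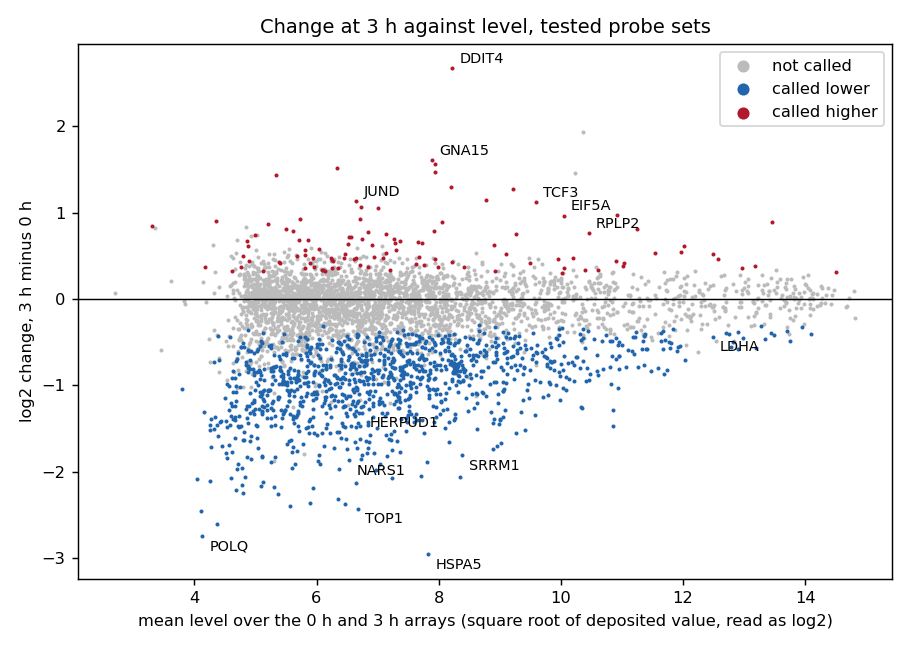
Log2 change at 3 h (vertical axis) against the mean log2 level over the 0 h and 3 h arrays (horizontal axis) for the 4276 tested probe sets, 1 point each. Blue points were called lower (1128) and red points higher (108); DDIT4 stands alone above 2 and HSPA5 is lowest at -2.96.

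The share of lower calls varied with the level. It was 25% among probe sets with a mean below log2 6, 32.6% between 8 and 9, and 8.25% from 12 upwards. The change of the probe sets at 12 and above had a median of -0.004. Probe sets that can cross-hybridize between genes (named _x_at) were called lower in 16% of cases against 26.6% of the plain _at probe sets.

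Among the probe sets named by the rule given further below, 161 were called. For 77 of them the call was lost under no setting other than the spike-in and 18S covariates. Such calls are said to have held. Called probe sets named outside that rule were not checked in this way. Because most named genes were picked by their calls on these arrays, a lack of overlap between 0 h and 3 h only describes them and adds no support. For counts of gene groups, 1 probe set per gene was taken, the brightest on average. Over the 2819 genes measured 28.2% were called; 728 were lower (25.8%) and 66 higher (2.34%) with a median change of -0.14. On re-centred values 40.9% were called; 491 were lower (17.4%) and 662 higher (23.5%) with a median of 0.18. A group's count is to be read against these shares.

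DDIT4, a stress-induced inhibitor of mTORC1, rose most. Its levels were 6.88 and 6.90 on the 0 h arrays and 9.60 and 9.51 on the 3 h arrays. Both 3 h arrays lay far above both 0 h arrays, a change of 2.67 (SE 0.142, adjusted p = 0.000266), or 6.36-fold. At 0.5 h the level was 5.56 ± 0.25 and at 1 h it was 6.46 ± 0.20 (SD, n = 2), and the step from 1 h to 3 h was 3.10 (adjusted p = 4.07e-05). It went up by a further 0.73 from 3 h to 6 h (adjusted p = 0.0228). The other members of the mTORC1 list, such as RHEB (-0.14) and MLST8 (0.04), were not called, apart from TXNIP.

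PFKFB3 makes the metabolite that activates phosphofructokinase and so glycolysis. Its levels were 6.24 and 6.14 at 0 h and 7.36 and 7.16 at 3 h. The groups did not overlap, and the change was 1.07 (SE 0.121, adjusted p = 0.00198). It differed from 1 h as well (1.49, adjusted p = 0.00245) and rose again to 6 h (0.88, adjusted p = 0.00609). The calls of DDIT4 and PFKFB3 held.

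The rest of the HIF-1 and glycolysis list moved little at 3 h. Of 23 members measured, 3 were higher and 2 lower, with a median change of -0.01 (re-centred 0.30, with 9 higher and 0 lower). Besides PFKFB3, the glucose transporter SLC2A3 (0.90, adjusted p = 0.0181) and the vasodilator peptide ADM (0.84, adjusted p = 0.0169) were called, but both stood below log2 5 on most of these arrays. With a floor at log2 5 their changes were 0.09 and 0.00, and without 0 h replicate 1 the count of higher members was 1. The lower members were muscle-type phosphofructokinase PFKM (-0.47) and lactate dehydrogenase LDHA (-0.44), neither of them called on re-centred values (adjusted p = 0.392 and 0.474). When 0 h replicate 1 or 3 h replicate 2 was omitted, the count of lower members was 0, and without 0 h replicate 2 it was 1. BNIP3, a mitophagy receptor known as a hypoxia target, read -0.02 and -0.01 at its 2 probe sets and was not called; from 3 h to 6 h it rose by 2.11 (adjusted p = 1.65e-05) and 3.03. ADM rose by 4.37 over the same interval. HIF1A itself lay below the filter at 3.40 and 3.38, and so did all 4 VEGFA probe sets.

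GNA15, which couples receptors of haematopoietic cells to phospholipase C, had levels of 7.05 and 7.12 at 0 h and of 8.87 and 8.51 at 3 h. Both 3 h arrays were higher than both 0 h arrays. The change was 1.60 (SE 0.154, adjusted p = 0.00184) and the difference from 1 h was 1.26 (adjusted p = 0.0153). Of the 9 G protein subunits measured, GNA15 alone was higher and 2 were lower (22.2%, against 25.8% of all genes). Counts of this list take the brightest probe set of each gene. GNAS was lower at 4 of its 7 tested probe sets, which changed by -0.60 to 0.19. GNAQ (-1.15, adjusted p = 0.0498) and GNG10 (-0.61, adjusted p = 0.0373) were lower, but neither was called on re-centred values, and without 0 h replicate 1 or without 3 h replicate 2 no subunit was called lower.

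The immediate early list split in both directions. Of 9 members measured, 2 were higher and 3 lower, with a median change of 0.08 (re-centred 0.40, with 3 higher and 3 lower). JUND, a subunit of the AP-1 transcription factor, stood at 5.88 and 6.28 at 0 h and at 7.26 and 7.17 at 3 h, without overlap. It rose by 1.13 (SE 0.196, adjusted p = 0.00523). ZFP36L2, which binds AU-rich elements and promotes the decay of the mRNAs that carry them, stood at 8.80 and 8.97 and then at 9.73 and 9.57. It also showed no overlap, with a change of 0.76 (SE 0.123, adjusted p = 0.00426) and a step of 0.90 from 1 h (adjusted p = 0.0173). The calls of JUND and ZFP36L2 held, though a second, dimmer probe set of ZFP36L2 was not called (0.33). FOS, JUN and EGR1, the classical members, lay below the filter on every array, where the highest level was 4.345 for EGR1.

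The lower members of that list were MYC, MCL1 and IER5. MYC, a transcription factor of cell growth, had levels of 10.44 and 10.33 at 0 h and of 9.79 and 9.66 at 3 h. The groups were separate, with a change of -0.66 (SE 0.107, adjusted p = 0.00435). It fell by a further 0.67 to 6 h (adjusted p = 0.0101). MCL1, a short-lived survival protein of the BCL2 family, fell by 0.95 (adjusted p = 0.00398). The immediate early gene IER5 fell by 0.98 (adjusted p = 0.0206). The calls of MYC and MCL1 held.

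**Figure D2:**
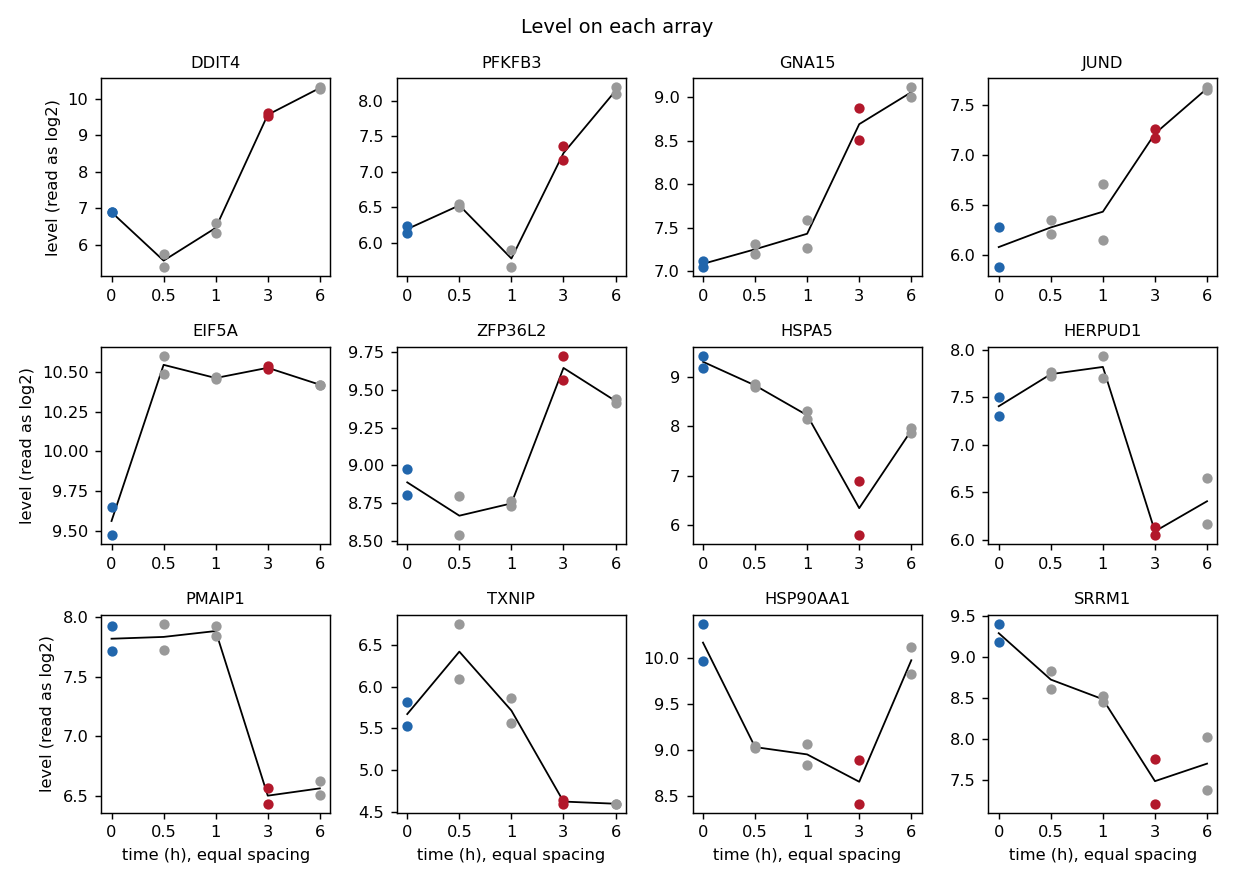
Log2 level on each array for 12 genes at 0 h (blue), 0.5 h and 1 h (grey), 3 h (red) and 6 h (grey); the line joins the means, times are spaced equally, and each panel has its own vertical scale. DDIT4, PFKFB3 and GNA15 stand above all earlier arrays at 3 h and HERPUD1 and PMAIP1 below them, whereas EIF5A and HSP90AA1 are near their 1 h levels.

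EIF5A, the only protein known to carry the polyamine-derived residue hypusine, rose on all 3 of its tested probe sets. The brightest stood at 9.65 and 9.47 at 0 h and at 10.53 and 10.52 at 3 h. The groups were apart, with a change of 0.96 (SE 0.101, adjusted p = 0.00184). The others changed by 0.89 and 1.47, and the call of the last was lost without 0 h replicate 1 and without 3 h replicate 2. Its 3 h level differed from that at 1 h by 0.06 (adjusted p = 0.786).

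Of 10 genes of polyamine synthesis and hypusination measured, 3 were lower (30%, against 25.8% of all genes), 1 higher and 6 not called. ODC1, the rate-limiting enzyme of polyamine synthesis, had levels of 10.43 and 10.34 at 0 h and of 9.72 and 9.55 at 3 h. These did not overlap, and the change was -0.75 (SE 0.101, adjusted p = 0.00267). It lay below the 1 h level by 0.74 (adjusted p = 0.0173) and fell by another 0.71 to 6 h (adjusted p = 0.00661). The antizyme inhibitor AZIN1, which protects ODC1, fell by 1.91 and 1.46 on its 2 probe sets, and spermine synthase SMS by 0.98. The higher member was EIF5A, and the same count of lower members was obtained without each of the 4 arrays in turn. The median of the list was -0.07, and 0.24 on re-centred values.

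Several of the highest changes came from 1 probe set of a gene whose other probe sets differed little. For TCF3, which encodes E-proteins of lymphoid development, 1 of 7 tested probe sets rose by 1.12, from 8.97 and 9.10 to 10.14 and 10.17, and the other 6 were not called. For the elongation factor subunit EEF1D, 1 of 4 rose by 1.57 (adjusted p = 0.00287) and none of the others was called. The RNA-binding protein LSM4 rose by 1.44 at 1 of 3, or by 1.05 with the floor, and the ribosomal protein RPL14 by 1.05 at 1 of 3, from 6.50 and 6.48 to 7.54 and 7.54. That probe set of RPL14 also stood 1.30 above 1 h (adjusted p = 0.0153). By contrast, all 4 probe sets of COX5B, a subunit of cytochrome c oxidase, were higher, by 0.36 to 1.30 (adjusted p = 0.00243 for the largest). With equal medians of all probe sets, not all of the 4 stayed called. Which transcripts the single probe sets read was not tested.

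ER chaperones were lower or uncalled at 3 h, with none higher. Of 13 measured, 5 were lower (38.5%) and the median change was -0.49 (re-centred -0.18, with 3 lower). The list member HSP90B1 lay below the filter, with a highest level of 3.21. HSPA5, the main chaperone of the ER lumen, had levels of 9.42 and 9.18 at 0 h and of 6.90 and 5.80 at 3 h. Both 3 h arrays lay far below, though they differed from each other by more than the 0 h arrays did. The change was -2.96 (SE 0.298, adjusted p = 0.00184), a 7.76-fold lower level. It was 1.88 below the 1 h level (adjusted p = 0.0229), and from 3 h to 6 h it rose by 1.57 (adjusted p = 0.0207), so 3 h was the lowest of the 5 times. The disulfide isomerase PDIA3 fell by 1.05 (adjusted p = 0.00537), and the calls of HSPA5 and PDIA3 held. MANF, a secreted ER stress protein, fell by 1.04 and the isomerases PDIA6 and PDIA4 by 0.83 and 0.49. In a fit lacking 0 h replicate 1 or 3 h replicate 2, the list had 2 lower members, and without 0 h replicate 2 it had 3.

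HERPUD1 had levels of 7.50 and 7.30 at 0 h and of 6.04 and 6.13 at 3 h. The groups were separate, with a change of -1.32 (SE 0.168, adjusted p = 0.00243), and the difference from 1 h was larger, at -1.73 (adjusted p = 0.00455). At the brightest probe set per gene, HERPUD1 was the only member called among 11 genes of unfolded protein signalling and ER-associated degradation. The list had a median change of -0.19 (re-centred 0.12). Its member VCP was higher at 1 of 2 tested probe sets (0.47). The transcription factor ATF4 read -0.06 (adjusted p = 0.756, re-centred 0.25). The transcription factors XBP1 and DDIT3 lay below the filter, at 4.14 and 2.64 at 0 h and at 3.82 and 2.74 at 3 h.

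The machinery that brings proteins into the ER was lower in part. Of 15 members, 8 were lower and 1 higher, with a median of -0.32 (re-centred -0.01, with 5 lower and 3 higher). The signal peptidase subunit SPCS3 fell by 1.32 (adjusted p = 0.00247) and SRP9, of the signal recognition particle, by 0.93 (adjusted p = 0.00398), and both calls held. The translocation protein TRAM1 fell by 1.14. SRP72 fell by 1.71, or by 0.19 with the floor. The 1 higher member was not called once any of the 4 arrays was left out. Without 0 h replicate 1 or 3 h replicate 2 the lower members numbered 2.

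Heat shock proteins formed the group with the lowest median. Of 12 measured, 9 were lower (75%) and none higher, and the median change was -1.14. The members HSPB1, HSPH1 and BAG3 lay below the filter, and HSPA1A, HSPA1B, HSPA8 and AHSA1 had no probe set with 1 symbol. On re-centred values 8 were lower, 1 was higher and the median was -0.83. The list's median was already -1.18 at 1 h against 0 h. HSPA4, a cytosolic partner of the HSP70 chaperones, had levels of 7.30 and 7.11 at 0 h and of 5.64 and 5.56 at 3 h. These were apart, with a change of -1.61 (SE 0.107, adjusted p = 0.000777). HSP90AA1, the inducible cytosolic chaperone of many kinases, was lower on all 4 probe sets, by 1.46 to 2.05, and the brightest went from 10.37 and 9.97 to 8.89 and 8.41. Its level at 3 h was not called different from 1 h (-0.30, adjusted p = 0.441), and from 3 h to 6 h it rose by 1.32 (adjusted p = 0.00807). The mitochondrial chaperones HSPD1 and HSPA9 fell by 1.40 and 1.33, the constitutive HSP90AB1 by 0.99 and the co-chaperone ST13 by 1.30. DNAJB1, a strongly heat-inducible member, was lower at 1 probe set (-0.77) and not called at the brighter one (-0.11). With 0 h replicate 1 left out the lower members numbered 5.

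Proteins that bind and splice pre-mRNA were lower in large number. Of 35 HNRNP and SR splicing genes, 23 were lower (65.7%) and none higher, with a median change of -0.73; re-centred, 17 were lower and 1 higher, with a median of -0.41. SRRM1, a coactivator in the splicing matrix, had levels of 9.40 and 9.18 at 0 h and of 7.76 and 7.20 at 3 h. There was no overlap, and the change was -1.81 (SE 0.242, adjusted p = 0.00267). The splicing regulators TRA2A and TRA2B fell by 1.39 and 1.43 and SRSF10 by 1.24. TRA2A was lower than at 1 h too (-0.73, adjusted p = 0.0336), as was the RNA-binding protein HNRNPA0 (-0.99 from 0 h and -0.90 from 1 h, adjusted p = 0.0178), although its dimmer probe set was not called (0.17). When 0 h replicate 1 was omitted, and again without 3 h replicate 2, the lower members numbered 13.

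Factors of mRNA decay and RNA granules were lower in 9 of 20 cases and higher in 1, ZFP36L2, with a median of -0.41 (re-centred -0.10, with 6 lower and 3 higher). The deadenylase CNOT7 fell from 8.67 and 8.50 to 7.49 and 7.18, with both 3 h arrays below both 0 h arrays, a change of -1.25 (SE 0.145, adjusted p = 0.00209). The granule protein CAPRIN1 fell by 1.77. The RNA-binding protein CELF2 fell by 2.18. In the fit lacking 0 h replicate 1 the lower members numbered 4, and without 3 h replicate 2 they numbered 5. The RNA helicases DDX3X and DDX17 fell by 1.56 and 1.06 (a dimmer probe set of DDX17 read 0.05). In their family 3 of 16 members were lower (18.8%, against 25.8% of all genes) and none higher (median -0.27, re-centred 0.04).

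Translation factors were lower in 17 of 35 cases, and EIF5A was the 1 higher member. The median change was -0.53, and on re-centred values it was -0.21, with 12 lower and 8 higher. Already at 1 h the list's median against 0 h was -0.62. EIF5, which triggers GTP hydrolysis on the initiation complex, stood at 7.75 and 7.55 at 0 h and at 6.45 and 5.72 at 3 h. The groups did not overlap, with a change of -1.57 (SE 0.228, adjusted p = 0.0032). The initiation factor EIF4G2 fell by 1.38, EIF2S2, a subunit of the factor that brings the initiator tRNA, by 1.16, and EIF3D by 0.91. Without 0 h replicate 1, and again without 3 h replicate 2, the lower members numbered 6. Among the aminoacyl-tRNA synthetases 4 of 13 were lower (30.8%, against 25.8% of all genes), with a median of -0.27 (re-centred 0.04 with 2 lower). The largest of these falls was that of asparaginyl-tRNA synthetase NARS1 (-1.86, adjusted p = 0.00267), whose call held. The isoleucyl enzyme IARS1 fell by 1.21 and its level at 3 h was above that at 1 h (1.06, adjusted p = 0.0479). With 0 h replicate 1 left out the synthetases had 1 lower member and without 3 h replicate 2 they had 2.

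Cytosolic ribosomal proteins changed little as deposited. Of 51 measured, 1 was lower (RPL6, -0.87) and 4 were higher (7.84%), and the median change was 0.02; re-centred, 21 were higher and 1 lower, with a median of 0.33. RPLP2, a protein of the ribosomal stalk, had levels of 10.07 and 10.08 at 0 h and of 10.83 and 10.84 at 3 h. These were clearly apart, with a change of 0.76 (SE 0.126, adjusted p = 0.00457), and this call held. The other higher members were RPL27A (0.61), RPS28 (0.38) and RPLP1 (0.31). When 0 h replicate 1 or 3 h replicate 1 was omitted, there was 1 higher member, and without either of the other 2 arrays there were 2.

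The factors that build ribosomes were lower in part. Of 16, 6 were lower and 1 higher, with a median of -0.27 (re-centred 0.04, with 4 lower and 3 higher). NOLC1, a nucleolar phosphoprotein, stood at 8.93 and 8.76 at 0 h and at 7.23 and 7.48 at 3 h. It did not overlap, changed by -1.49 (SE 0.154, adjusted p = 0.00184) and was below the 1 h level by 0.93 (adjusted p = 0.0254). Nucleolin, NCL, fell by 1.17 and nucleophosmin, NPM1, by 0.79, while the snoRNP protein NHP2 rose by 0.39. The calls of NOLC1 and NCL held, and that of NHP2 was lost without each of the 4 arrays. In a fit lacking 0 h replicate 1 or 3 h replicate 2, there were 2 lower members.

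Of 62 respiratory chain and ATP synthase genes, 10 were lower (16.1%) and 2 higher with a median of 0.01, and on re-centred values 2 were lower and 23 higher with a median of 0.32. The complex I subunit NDUFV2 fell by 0.62 (adjusted p = 0.00348) and the ATP synthase subunit ATP5F1A by 0.59 (adjusted p = 0.00508), but neither was called on re-centred values (adjusted p = 0.0688 and 0.119). Of 40 mitochondrial ribosomal proteins, 8 were lower (20%, against 25.8% of all genes) and none higher. Their median was -0.22 (re-centred 0.09, with 6 lower and 5 higher). MRPL15 fell from 9.03 and 8.65 to 8.04 and 7.99, a change of -0.82 (SE 0.133, adjusted p = 0.00426) with no overlap, and MRPS27 by 0.68; both calls held. Without 0 h replicate 1 or 3 h replicate 2 the respiratory list had 2 lower members, and of its 2 higher members none was left without 0 h replicate 1 or 3 h replicate 1 and 1 without either of the others; the mitochondrial ribosomal list had 5 without 0 h replicate 1 and 13 without 3 h replicate 1.

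**Figure D3:**
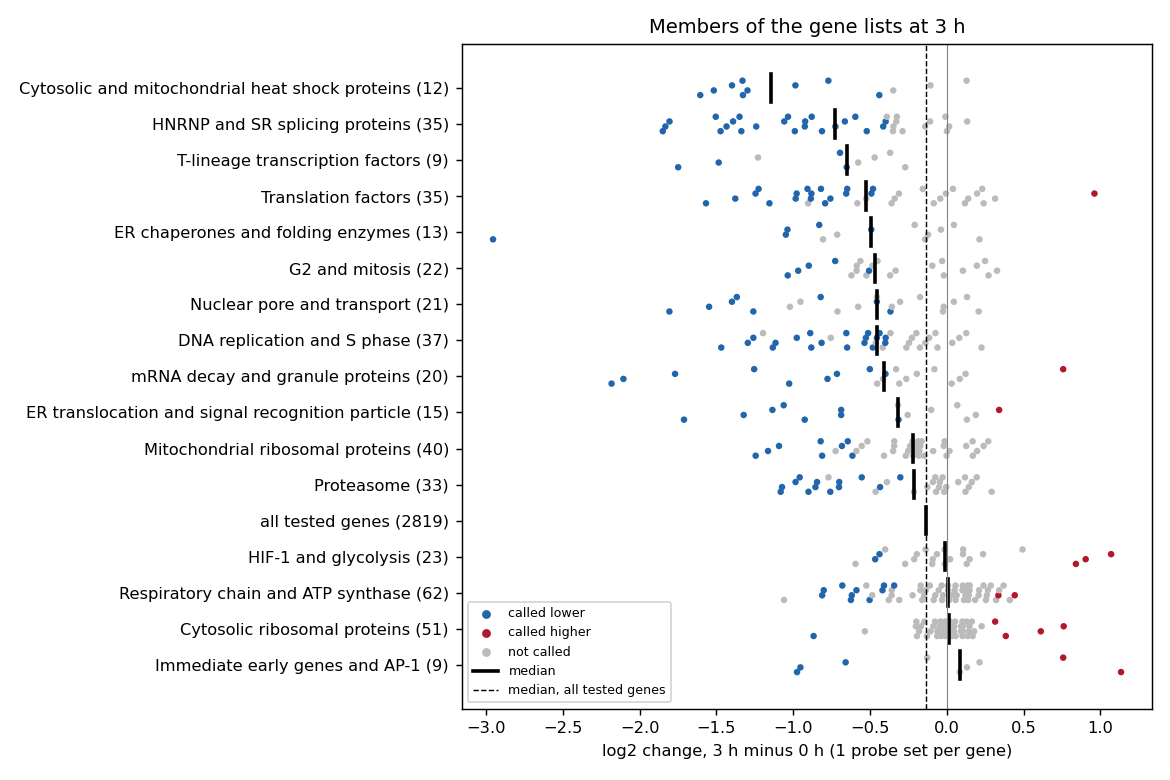
Log2 change at 3 h (horizontal axis) of the measured members of 16 gene lists, 1 probe set per gene, with the number of members in brackets; blue points were called lower, red higher and grey not, thick bars are list medians and the dashed line is the median of all 2819 genes (-0.14). Heat shock proteins have the lowest median (-1.14), and cytosolic ribosomal proteins lie around 0.

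The proteasome was lower in 13 of 33 cases and higher in none, with a median of -0.21 (re-centred 0.10, with 8 lower and 7 higher). The 20S core subunit PSMA3 fell by 0.96 (adjusted p = 0.00853) and the ATPase PSMC2 by 0.98. PSMC6, another ATPase, lay below log2 5 and changed by -0.70, or by 0.00 with the floor. With 0 h replicate 1 left out the list had 1 lower member and without 3 h replicate 2 it had 3.

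Genes of DNA replication were lower in 19 of 37 cases (51.4%), with none higher and a median change of -0.46. On re-centred values 11 were lower and 3 higher, with a median of -0.14. RRM2, the regulated subunit of ribonucleotide reductase, had levels of 10.37 and 10.17 at 0 h and of 9.26 and 9.02 at 3 h. The groups were separate, with a change of -1.13 (SE 0.162, adjusted p = 0.00304), and it fell by a further 0.73 to 6 h (adjusted p = 0.035). The clamp loader subunit RFC4 fell by 1.26, the single-strand binding protein RPA1 by 0.89 and the helicase subunit MCM4 by 0.82. CDC6, which loads that helicase, was lower on both probe sets (by 1.96 and 1.30, or by 0.67 and 0.76 with the floor). The lower members numbered 5 with 0 h replicate 1 omitted, 11 with 0 h replicate 2 omitted and 7 with 3 h replicate 2 omitted.

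Genes of G2 and mitosis were lower in 5 of 22 cases (22.7%, against 25.8% of all genes) and higher in none. Their median change was -0.47 (re-centred -0.16 with 3 lower and 4 higher), and at 1 h against 0 h it was -0.49. WEE1, the kinase that holds back CDK1, fell from 8.53 and 8.44 to 7.44 and 7.46, a change of -1.04 (SE 0.165, adjusted p = 0.00411) without overlap. CDK1 itself fell by 0.90. When 0 h replicate 1 or 3 h replicate 2 was omitted, the list had 1 lower member, and without 0 h replicate 2 it had 3. Nuclear pore and transport genes were lower in 8 of 21 cases and higher in none (median -0.46, re-centred -0.14 with 6 lower and 2 higher). Their median at 1 h against 0 h was -0.94. The import receptor KPNB1 fell by 1.37 and the pore protein NUP50 by 1.26, and both calls held. The lower members numbered 2 with 0 h replicate 1 omitted, 5 with 0 h replicate 2 omitted and 3 with 3 h replicate 2 omitted.

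Among genes of cell death, PMAIP1 was lower at 3 h. It encodes NOXA, a BH3-only protein that neutralizes MCL1. Its levels were 7.93 and 7.72 at 0 h and 6.57 and 6.43 at 3 h. The groups were apart, with a change of -1.32 (SE 0.123, adjusted p = 0.00184), and the difference from 1 h was -1.38 (adjusted p = 0.00312). PMAIP1 and MCL1 were the 2 lower members among 10 of the BCL2 family, with none higher (median -0.04, re-centred 0.27), also without each array in turn. BAX (0.07), BAK1 (0.00) and BCL2 (0.11) were not called. The share of lower members was 20% both in this family and among caspases and death factors, against 25.8% of all genes. Among caspases and death factors CASP6 (-1.38) and cytochrome c, CYCS (-0.80), were the 2 lower of 10 members, and without 0 h replicate 1 or 3 h replicate 2 there were none; without 0 h replicate 2 there was 1.

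TXNIP, an arrestin-like protein that binds thioredoxin and limits glucose uptake, was lower on both tested probe sets. The 1 with the larger change went from 5.94 and 5.90 to 3.47 and 3.89. The arrays did not overlap; the change was -2.24 (SE 0.362, adjusted p = 0.00426), or -0.92 with the floor, and the difference from 1 h was -2.23 (adjusted p = 0.0238). The other changed by -1.05 (adjusted p = 0.0091), a call lost when replicate 2 of either time was omitted. Of 17 redox genes 6 were lower and 1 higher, with a median of -0.07 (re-centred 0.24, with 4 lower and 4 higher). Catalase, CAT, fell by 1.04 and thioredoxin reductase TXNRD1 by 0.74. In the fit lacking 0 h replicate 1 there was 1 lower member, without 3 h replicate 2 there were none and without 0 h replicate 2 there were 4, while the single higher member was lost without 0 h replicate 1 and without 3 h replicate 1.

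In lipid and iron metabolism, 4 of 7 sterol and fatty acid genes were lower and none higher (median -0.47, re-centred -0.16 with 3 lower). SCD, which desaturates fatty acids, fell from 6.74 and 6.97 to 5.84 and 5.64, a change of -1.12 (SE 0.183, adjusted p = 0.00445) without overlap, and was also below 1 h (-0.997, adjusted p = 0.0328); its second probe set was not called (-0.19). The squalene epoxidase SQLE fell by 1.07 and ACLY, which makes cytosolic acetyl-CoA, by 0.87. Without 0 h replicate 1 there was 1 lower member and without 3 h replicate 2 there were 2. Of 8 iron handling genes measured, 2 were lower (25%) and 1 higher, with a median of -0.30, and on re-centred values 1 was lower and 2 were higher (median 0.01). The transferrin receptor TFRC fell by 1.18 (adjusted p = 0.00522), a call that held, and rose again by 1.14 to 6 h (adjusted p = 0.0168). The iron-sulphur scaffold ISCU fell by 0.61 and the haem synthesis enzyme UROD rose by 0.40. Without any 1 of the 4 arrays no iron handling gene was higher, and 1 was lower except without 3 h replicate 1, where 2 were. Of 13 genes of the amino acid response and serine-folate synthesis, 1 was lower and 1 higher (median 0.02), and on re-centred values 1 was lower and 6 were higher (median 0.34). The lower member was the folate enzyme MTHFD1 (-0.88, adjusted p = 0.0231); there were 2 lower members without 0 h replicate 2 or 3 h replicate 1 and none without either of the others. The amino acid transporter SLC7A5 rose by 0.65 (adjusted p = 0.0254) and was above the 1 h level by 0.87 (adjusted p = 0.0386), but its call remained only when 3 h replicate 2 was the array omitted (adjusted p over the 4 omissions up to 0.139).

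T-cell genes behaved unevenly. Of 14 T-lineage markers that passed the filter, 3 were lower (21.4%, against 25.8% of all genes) and 1 higher. Their median was -0.04 (re-centred 0.27, with 1 lower and 2 higher). DNTT, the template-independent polymerase of antigen receptor joining, fell from 7.05 and 7.29 to 6.38 and 5.91, a change of -1.03 (SE 0.184, adjusted p = 0.00606) without overlap. The antigen-presenting molecules CD1E and CD1B fell by 0.69 and 0.45 and the adaptor LAT rose by 0.43. The CD3 chains CD3D (0.12) and CD3E (-0.06) and the kinase LCK (0.03) were not called. With 0 h replicate 1 or 3 h replicate 2 left out, there was 1 lower marker, and LAT was called only when 3 h replicate 2 was the array left out.

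Of 9 T-lineage transcription factors 4 were lower and none higher, with a median of -0.65 (re-centred -0.34, with 3 lower). SATB1, a chromatin organizer of thymocytes, fell from 8.29 and 7.94 to 6.84 and 5.89, a change of -1.75 (SE 0.312, adjusted p = 0.00592) without overlap. BCL11B, which maintains T-cell identity, fell by 1.49, LEF1 by 0.65 and TOX by 0.70. When 0 h replicate 1 was omitted none of the 4 was called, and without 3 h replicate 2 there was 1.

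CD47, the antigen of MABL, was read differently by its 2 tested probe sets. One had levels of 8.75 and 8.43 at 0 h and of 7.63 and 7.60 at 3 h. They did not overlap, with a change of -0.97 (SE 0.156, adjusted p = 0.00425), and that call held, with an adjusted p of up to 0.0367 when an array was left out. The other, brighter on average, changed by -0.26 (adjusted p = 0.183) and by 0.05 on re-centred values. Of 7 measured genes for CD47 and proteins reported to interact with it, the ubiquilin UBQLN2 alone was called (-1.27, adjusted p = 0.00951; not called without 0 h replicate 1 or without 3 h replicate 2).

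The lowest changes outside these groups belonged to POLQ, TOP1, PTPN11 and PAK2. TOP1, the DNA topoisomerase that relieves supercoils, fell from 7.93 and 7.86 to 5.98 and 4.96, a change of -2.42 (SE 0.355, adjusted p = 0.00332). Its 3 h arrays were both lower and lay further from each other than the 0 h arrays did. The phosphatase PTPN11 fell by 2.37 and the kinase PAK2 by 2.31, the latter with a call lost without 0 h replicate 1 (adjusted p = 0.0583). POLQ, a DNA polymerase of end joining, fell by 2.74, but from only 5.62 and 5.38, so that its change with the floor was -0.50.

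Probe sets of the same gene gave a further reading of the calls. Of 632 genes with at least 2 tested probe sets, 113 were lower on all of them and 3 (EIF5A, COX5B and TXN2) higher on all. Of these 3, only EIF5A was also called on all its probe sets with equal medians of all probe sets. Another 168 were lower on some but not all and 31 higher on some but not all, while 1, CHTOP, had calls in both directions and 318 had none. In 43 genes the probe sets differed by more than 1 on the log2 scale. SON, YME1L1, PPID, AZIN1 and ST13 were lower on every tested probe set, as were HSPD1, HSPA9, NOLC1 and CAPRIN1. SON, which binds RNA in splicing speckles, changed by -2.16 and -1.83, and the cyclophilin PPID by -1.81 and -1.47.

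Few probe sets distinguished 3 h from its neighbours in time. Against 1 h, 3.77% were called, 83 higher (1.94%) and 78 lower (1.82%). From 3 h to 6 h 7.09% were called, 214 higher (5%) and 89 lower (2.08%). These comparisons share the 3 h arrays with that against 0 h. List medians against 0 h were lower at 1 h than at 3 h for heat shock proteins, nuclear pore and transport, translation factors and G2 and mitosis. Other lists had the lower median at 3 h, such as DNA replication (-0.12 at 1 h, -0.46 at 3 h) and sterol and fatty acid genes (0.10 and -0.47). ID1, an inhibitor of E-proteins, shows how the reference matters, since its level was 5.93 on both 0 h arrays and 6.05 and 5.98 on the 3 h arrays, a change of 0.09 (adjusted p = 0.534), while it was 2.25 below 1 h (adjusted p = 3.22e-05).

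**Figure D4:**
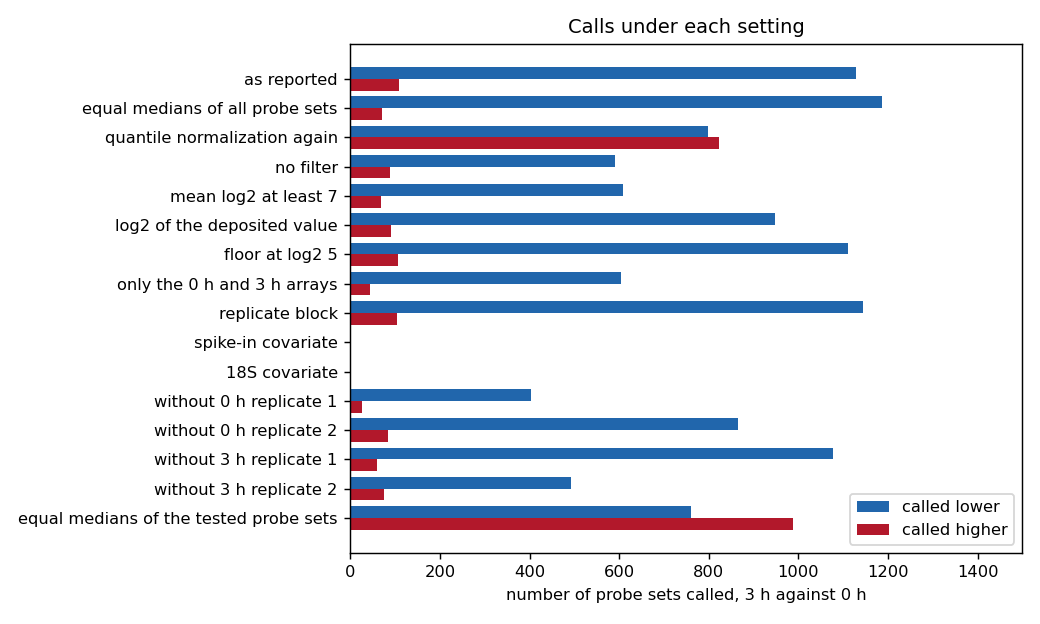
Number of tested probe sets called lower (blue) and higher (red) at 3 h against 0 h (horizontal axis) under each setting (vertical axis). As reported there are 1128 and 108; equal medians of the tested probe sets give 760 and 987, and both covariates give 0.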

How the data were processed

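Total RNA of MOLT-4 cells was read on 10 Affymetrix arrays, 2 at each of 5 times. The values deposited by the authors are scores whose scale is not stated in the sources used here; GCRMA is named in the submitters' processing notes, with no version. The square root of a deposited value was read as log2. Probe sets with a deposited value of at least 25 (log2 5) on at least 2 arrays were tested, without controls. limma 3.58.1 in R 4.3.3 fitted all 10 arrays with time as a factor (lmFit, eBayes), with Benjamini-Hochberg adjustment over all 4276 probe sets. On simulated data of 4276 probe sets for this comparison, 92% of log2 changes of 1, 100% of those of 2 and 0.221% of unchanged probe sets were called. The simulation had independent noise at the fitted spread, few changed probe sets and no shift between arrays. Its rates therefore do not carry over to these arrays. Figures were drawn with Python 3.11.15 and matplotlib 3.10.9.

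The genes and lists were chosen with earlier results of these data known. The naming rule took the 15 highest and 15 lowest calls that met the fold rule. It also took up to 5 called members per list by t, and 18 genes whatever their values. Up to 12 further genes each way had all probe sets called in 1 direction, as deposited and with equal medians of all probe sets. Uncalled list members were named after their values were seen. So were probe sets or genes outside this rule, such as CANX, CALR, SERP1, CHTOP and TXN2. Alternatives covered scaling, filters, the value scale, a floor at log2 5, the arrays fitted, a replicate block, control covariates and omission of each array; equal medians of the tested probe sets were added after seeing the data. Only probe sets with 1 symbol were named. The number of arrays limits the precision.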

Additional observations from a re-analysis of the deposited data

How the results depend on the processing

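Of the 161 called probe sets named by rule, 157 stayed called with equal medians of all probe sets and 141 after renewed quantile normalization. The number was 138 with equal medians of the tested probe sets and 103 in a fit of the 0 h and 3 h arrays alone. It was 0 with either control covariate. Against 108 higher, the counts were 71 with equal medians of all probe sets, 822 after quantile normalization, 69 with a mean log2 of at least 7, 43 with the 4 arrays alone, 0 with the spike-in or 18S covariate and 987 with equal medians of the tested probe sets, an alternative chosen after seeing the data. Against 1128 lower, they were 591 without a filter, 608 with a mean of at least 7, 603 with the 4 arrays alone and 0 with either covariate. By the fold rule, 13 higher became 21 after quantile normalization and 24 with equal tested medians, and 286 lower became 134, 118 and, with a mean of at least 7, 72. Filters changed the number of probe sets tested, and omission of a 3 h array left the fold rule with only 1 array to meet. The other causes were not tested. Leaving out 1 array gave 26 to 83 higher, 403 to 1077 lower, and by the fold rule 11 to 23 and 225 to 641.

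Uncalled changes near 0 turned sign. ATF4 read 0.11 after quantile normalization, -0.15 to 0.032 with 1 array left out and 0.25 with equal tested medians. The BNIP3 probe sets read 0.029 and 0.17 after quantile normalization, 0.0195 and 0.75 with the spike-in covariate, 0.026 and 0.69 with 18S, and 0.29 and 0.30 with equal tested medians. With 1 array left out the first ranged from -0.043 to 0.0064 and the second from -0.22 to 0.19. The brighter CD47 probe set read 0.074 and 0.047 under quantile normalization and equal tested medians. GNAQ, called lower as reported, read 0.21 with the 18S covariate (adjusted p = 0.92). The cause was not tested.

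Same-numbered arrays deviated from their group means with correlations of -0.231 to 0.147 (0.099 for 0 h and 3 h), so the numbers were not taken as a pairing. With the replicate number as a block, 104 probe sets were higher and 1143 lower.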
